A study of Mus musculus with 74 samples.

Results

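RNA polymerase II (Pol II) was measured in mouse liver by chromatin immunoprecipitation and sequencing (ChIP-seq), and the peaks described here are those whose annotated distance to a transcription start site was at most 1000 bp. These promoter peaks were 14810 of the 31434 Pol II peaks, the other 16624 lying further from a start. They were assigned to 12094 genes, of which 9717 had 1 promoter peak, 2091 had 2 and 286 had more. Of the promoter peaks, 14103 were assigned to protein-coding genes, 649 to non-coding RNA genes, 53 to pseudogenes, 3 to snoRNA genes and 2 to snRNA genes.

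The LKO group consisted of liver-specific Gps2 knockout mice, made by crossing a floxed Gps2 allele with Cre driven by the albumin promoter, which is active in hepatocytes. The WT group carried the same floxed allele without Cre. All mice were male, on a C57BL/6 background, 8 to 12 weeks old and on chow diet, and the other cells of an LKO liver keep GPS2. Pol II was measured in 1 WT and 1 LKO library, with 11.7 M and 11.9 M tags. Intervals given for Pol II cover counting error only, and nothing is known of its spread between livers. Where ChIP libraries of the same group could be compared, they differed by more than counting error. This was 2.31 (WT) and 2.79 (LKO) times the counting variance per peak for H3K4me3, and 2.93 and 5.39 times for H3K27ac. GPS2 itself was also measured in 1 library per group, H3K4me3 and H3K27ac in 2 libraries per group and RNA in 4 per group. The labels do not tie the assays to the same animals.

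GPS2 is a subunit of the NCOR co-repressor complex, which holds histone deacetylase HDAC3 and is recruited to DNA by nuclear receptors such as PPARα, the fatty acid sensor of liver. Pol II starts transcription at promoters and often pauses shortly after the start, so its ChIP signal at a promoter counts polymerase that is initiating or paused and is not itself a measure of RNA output. H3K4me3 marks the nucleosomes beside active start sites and H3K27ac marks active promoters and enhancers. The comparison asks at which promoters Pol II differed between livers with and without hepatocyte GPS2, and whether RNA, histone marks or GPS2 binding differed at the same genes.

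The promoters to which the comparison comes back most often were those of 3 genes that the design singled out, Pdk4, Cyp4a14 and Fgf21, and, among genes with at least 100 Pol II promoter tags, of the gene with the largest ratio between the libraries, Cyp2a4, and of the 2 genes with the smallest, Mup7 and Mt2. Below are the 250 bases that end at the base before the start used by each Pol II peak (mouse build mm9, 5′ to 3′ on the strand of the gene). Capitals mark an exact TATAAA (the core of the TATA box) or GGGCGG (a GC box) on either strand, so that a match on the other strand reads TTTATA or CCGCCC. These windows lie at chr6:5446279-5446528 (minus strand) for Pdk4, chr4:115168747-115168996 (minus) for Cyp4a14, chr7:52870861-52871110 (minus) for Fgf21, chr7:27091961-27092210 (plus) for Cyp2a4, chr4:60083348-60083597 (minus) for Mup7 and chr8:96696268-96696517 (plus) for Mt2.
Pdk4: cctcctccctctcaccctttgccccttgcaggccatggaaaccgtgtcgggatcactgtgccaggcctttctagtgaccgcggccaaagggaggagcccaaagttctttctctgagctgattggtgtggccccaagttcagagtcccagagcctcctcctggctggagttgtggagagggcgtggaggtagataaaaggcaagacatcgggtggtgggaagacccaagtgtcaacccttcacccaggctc
Cyp4a14: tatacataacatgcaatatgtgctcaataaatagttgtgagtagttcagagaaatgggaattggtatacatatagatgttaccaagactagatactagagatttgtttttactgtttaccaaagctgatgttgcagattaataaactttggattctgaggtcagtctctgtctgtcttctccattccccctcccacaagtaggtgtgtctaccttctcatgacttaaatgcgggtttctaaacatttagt
Fgf21: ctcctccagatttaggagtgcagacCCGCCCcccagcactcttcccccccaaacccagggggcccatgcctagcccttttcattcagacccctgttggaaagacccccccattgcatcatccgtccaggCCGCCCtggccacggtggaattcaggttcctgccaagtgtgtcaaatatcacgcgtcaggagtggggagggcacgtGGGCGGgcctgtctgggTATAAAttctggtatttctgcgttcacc
Cyp2a4: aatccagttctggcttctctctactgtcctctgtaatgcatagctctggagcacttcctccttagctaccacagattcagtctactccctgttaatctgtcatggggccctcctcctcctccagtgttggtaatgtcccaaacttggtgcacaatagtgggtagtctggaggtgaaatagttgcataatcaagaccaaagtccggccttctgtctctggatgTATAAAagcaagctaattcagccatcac
Mup7: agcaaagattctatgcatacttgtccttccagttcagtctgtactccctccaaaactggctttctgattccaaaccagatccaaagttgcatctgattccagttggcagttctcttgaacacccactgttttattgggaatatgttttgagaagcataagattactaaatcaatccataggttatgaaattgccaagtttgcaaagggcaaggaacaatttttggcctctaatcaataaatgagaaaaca
Mt2: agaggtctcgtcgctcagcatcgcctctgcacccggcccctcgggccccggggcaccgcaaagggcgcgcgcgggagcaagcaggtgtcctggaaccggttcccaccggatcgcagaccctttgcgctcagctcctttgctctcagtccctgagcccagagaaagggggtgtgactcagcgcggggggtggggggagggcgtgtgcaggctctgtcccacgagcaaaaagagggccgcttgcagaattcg

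The windows of Fgf21 and Cyp2a4 each held TATAAA from 28 to 23 bases before the start, and the Fgf21 window held GGGCGG 3 times. Neither motif was found in the windows of Pdk4, Cyp4a14, Mup7 and Mt2, and none of the 6 windows held, with at most 2 mismatches on either strand, a pair of AGGTCA with any 1 base between them, the direct repeat that PPARα binds with RXR. Their makeup ranged from the Mup7 window, with 38% G and C and no CpG, to the Mt2 window, with 67.6% G and C and 21 CpG. Over the 10811 genes whose strand could be read from the annotation, 6.29% of such windows held TATAAA, 61.8% held GGGCGG and 2.51% held the direct repeat.

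Promoter peaks were narrow, with widths of 203 to 405 bp and a median of 209 bp. Of these peaks, 11807 were annotated as promoter, 1219 as intron, 1144 as 5′ UTR, 383 as exon and the rest as non-coding exon, gene end or 3′ UTR. The authors' peak lists held 12609 of them (85.1%) in both libraries, 1082 in WT only and 1119 in LKO only, whereas 49.3% of the other Pol II peaks were in both lists. Promoter peaks held 1392758 tags in WT (11.9% of the library) and 1496472 tags in LKO (12.6%), with medians of 85 and 92 tags per peak. A total of 12521 promoter peaks (84.5%) had at least 50 tags in both libraries together and were compared, and 2289 had fewer. On either side of the distance limit, the peaks of Treh (at −999 bp, 65 and 51 tags in WT and LKO) and Pcbp1 (998 bp downstream, 97 and 84 tags) were included, and those of C2cd4d (1001 bp downstream, 70 and 73 tags) and Spred1 (at −1001 bp, 19 and 34 tags) were not.

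Pol II at promoters was close to the same in both livers. The log2 ratio of LKO to WT tags, each per total tags of its library, had a median of 0.07 over the compared promoter peaks, with quartiles of −0.07 and 0.22. A peak was called higher or lower in the LKO library when the ratio was at least 1.5-fold and its exact 95% interval, for the ratio of a pair of Poisson counts, excluded 1. By this rule 289 promoter peaks were higher (2.31%) and 168 were lower (1.34%) in LKO. The intervals were not adjusted for the number of peaks compared, and the part of counting error in these calls was not tested. Among the 4885 other Pol II peaks with as many tags, the median log2 ratio was 0.10, 448 peaks were higher (9.17%) and 182 lower (3.73%). Over all 17406 peaks compared, these shares were 4.23% and 2.01%. Scaling the libraries to the median ratio of all Pol II peaks, a log2 shift of 0.08, turned the balance around to 178 promoter peaks higher and 253 lower, so the excess of higher peaks depended on the scaling. At a fold of 2, 54 peaks were higher and 39 lower.

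**Figure D1:**
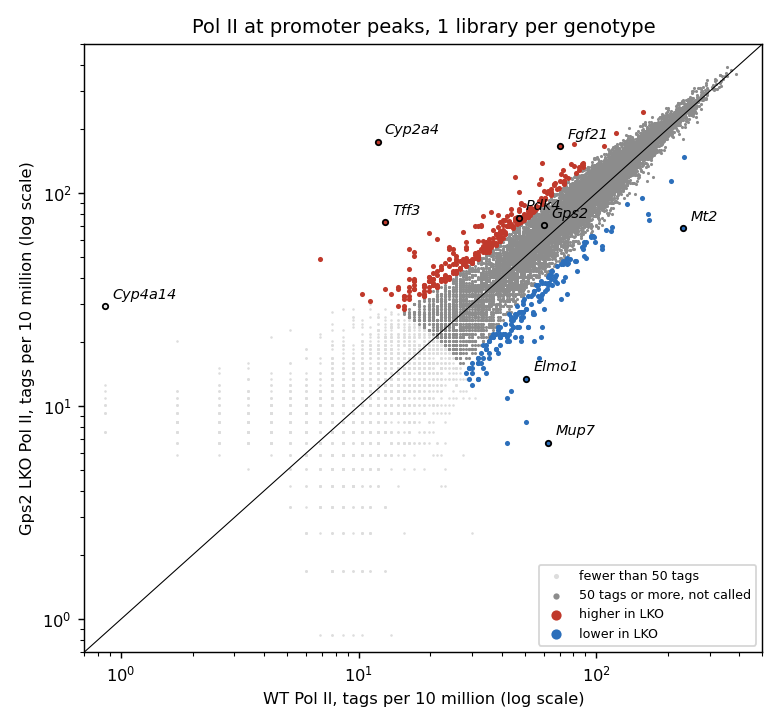
Normalised Pol II tags (per 10000000 of the library) at each promoter peak in the WT library (horizontal, log scale) and the LKO library (vertical, log scale). Red points were higher and blue points lower in LKO at a fold of 1.5 with the interval, dark grey points were compared and not called, light grey points had under 50 tags, and the line marks equal values. Labelled genes are shown at their peak with most tags, and most points lie along the line up to the highest counts, with the labelled Cyp2a4 and Mt2 far from it.

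Called peaks were mostly peaks with few tags. In the quartile of peaks with 50 to 125 tags, 171 were higher and 125 lower, and in the quartile with 300 to 881 tags, 3 were higher and 3 were lower. The highest peaks reached 450 tags in WT and 463 in LKO, up to 2.00 and 2.18 tags per base, and 1195 compared peaks held at least 1 tag per base in a library. Of these densest peaks 1 was higher and 3 were lower. Whether removal of duplicate tags limited their ratio was not tested. With distance from the start, the share of peaks called was small just downstream of it (132 higher and 66 lower of 6719 peaks within 100 bp, 17 and 13 of 1132 peaks at 100 to 200 bp) and larger at 500 to 1000 bp downstream (34 higher and 30 lower of 750 peaks), where the median tag count was 88 against 200. The part of the lower counts in these shares was not tested.

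The 5 genes with most promoter tags in WT differed by less than counting error. Cpeb2, an mRNA-binding protein, had 696 tags in WT and 728 in LKO over 3 peaks. Srebf1, the regulator of lipogenesis, had 679 and 660 tags over 5 peaks. Klf10, an early response transcription factor, had 651 and 698. The non-coding 4833418N02Rik had 616 and 631, and Ing1, a chromatin reader, had 597 and 600. Both peaks of 4833418N02Rik were annotated to the start of a protein-coding transcript, and which gene their tags belong to was not tested. The RNA of Klf10 nevertheless rose (log2 fold change 1.33 ± 0.08 (SE), adjusted p = 1.7e-08, edgeR) and that of Cpeb2 fell (−0.73 ± 0.09, adjusted p = 5.12e-05).

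Tags were next summed over the promoter peaks of each gene, and 10693 genes had at least 50 tags. Of these, 209 were higher (1.95%) and 112 lower (1.05%) in LKO, with a median log2 ratio of 0.07. With the libraries scaled to the median, 119 were higher and 170 lower. Where a gene also had other Pol II peaks beyond 1000 bp from a start with at least 50 tags together, these served as a second reading in the same 2 libraries. The other peaks of 60 genes that were higher at the promoter had a median log2 ratio of 0.41, with 54 above 0. Those of 38 genes that were lower had a median of −0.23, with 12 above 0. Over all 2781 such genes the median was 0.10, with 1712 above 0. For the 1602 genes with 2 compared promoter peaks, Spearman's correlation between the ratios of both peaks was 0.15, a description over peaks that share libraries and neighbouring sequence.

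Cyp2a4, a female-biased steroid hydroxylase, had the largest ratio. Its promoter peak (chr7:27092105-27092329) held 14 tags in WT and 207 in LKO, a ratio of 14.5 (95% interval 8.44 to 26.97, counting error only). The peak at its 3′ end went from 6 to 79 tags. Its RNA was 2.42, 2.61, 2.91 and 5.22 CPM (counts scaled to library size) in WT and 1289, 1035, 1239 and 1231 CPM in LKO, which do not overlap (log2 fold change 8.51 ± 0.17 (SE), adjusted p = 3.34e-13, edgeR quasi-likelihood test). Cyp2a5, its near-identical neighbour, had 149 and 162 promoter tags, a ratio of 1.07 (0.848 to 1.34). Reads that match both genes can be split between them in either assay, so both values are uncertain.

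Tff3, a secreted trefoil peptide, followed with 15 tags in WT and 87 in LKO, a ratio of 5.68 (3.26 to 10.6). Its RNA was between 21.2 and 24.2 CPM in WT and between 64.8 and 99.3 CPM in LKO (log2 fold change 1.95 ± 0.12, adjusted p = 3.56e-08). The non-coding 1810053B23Rik had 3 promoter peaks with 29 tags in WT and 112 in LKO, a ratio of 3.79 (2.50 to 5.91), and both its RNA (2.54 ± 0.28, adjusted p = 1.06e-05) and its H3K4me3 (log2 fold change 2.51, adjusted p = 0.00731) rose. Sdk1, a cell adhesion protein, had 23 and 77 tags, a ratio of 3.28 (2.04 to 5.48), with RNA at 0 CPM in 3 of 4 WT libraries and at 1.19 to 2.13 CPM in LKO. A further Sdk1 peak, in its intron 1, held 118 and 108 tags.

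Fgf21, a hormone that liver secretes in fasting and under amino acid stress, had a promoter peak (chr7:52870728-52870939) with 82 tags in WT and 198 in LKO, a ratio of 2.37 (1.82 to 3.10). Its RNA was 0.744, 0.475, 0.873 and 1.02 CPM in WT and 17.1, 12.6, 17.3 and 15.1 CPM in LKO, with no overlap (log2 fold change 4.30 ± 0.19, adjusted p = 7.44e-10). The H3K4me3 peak over it held 61.8 and 92.5 normalised tags (tags per 10000000 of the library) in WT and 222 and 232 in LKO (log2 fold change 1.56, adjusted p = 0.00117). GPS2 was called there in WT with 12 tags, against 0 in LKO, and this peak ranked 5640 by GPS2 tags among the 8087 promoter peaks with a GPS2 peak. The ratio of Pol II was thus smaller than that of RNA at this gene.

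Pdk4, the kinase that shuts off pyruvate dehydrogenase when fat is burned, showed a smaller difference. Its peak (chr6:5446189-5446399) held 55 tags in WT and 91 in LKO, a ratio of 1.62 (1.148 to 2.31). RNA was 1.49, 2.61, 2.85 and 2.04 CPM in WT and 4.93, 5.03, 4.89 and 5.596 CPM in LKO (log2 fold change 1.17 ± 0.17, adjusted p = 0.000146). Its H3K4me3 peak held 271 and 266 normalised tags in WT and 308 and 293 in LKO, a difference that did not pass the test (0.16, adjusted p = 0.79). GPS2 at this promoter, with 97 tags in WT and 0 in LKO, ranked 13 among the promoter peaks.

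Cyp4a14, a fatty acid hydroxylase and a classical PPARα target, was below the 50-tag minimum. Its peak (chr4:115168616-115168818) held 1 tag in WT and 35 in LKO, a ratio of 34.3 with an interval of 5.77 to 1393. RNA was 4.03, 4.16, 3.37 and 5.16 CPM in WT and 128, 126, 109 and 118 CPM in LKO (log2 fold change 4.85 ± 0.11, adjusted p = 6.76e-13). H3K4me3 there was 33.8 and 55.4 normalised tags in WT and 125 and 241 in LKO (2.04, adjusted p = 0.00476), a call that was lost without WT replicate 1 (adjusted p = 0.0737). No WT GPS2 peak overlapped this promoter peak, while the paper reports GPS2 binding at the wider Cyp4a14 locus.

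Among the other genes of largest ratio, Aldh1b1, a mitochondrial aldehyde dehydrogenase, had 56 and 128 tags, and its RNA rose (1.10 ± 0.07, adjusted p = 9.59e-08). The pseudogene Serpina4-ps1 had 69 and 165 tags while its RNA fell slightly (−0.33 ± 0.06, adjusted p = 0.000479). Its other Pol II peaks near the gene end went from 6 to 95 and from 10 to 69 tags. Gm16537 (32 and 78 tags), Tnfaip6 (39 and 93), a hyaluronan-binding protein, and Dmrt1i (37 and 83) were also higher, and their RNA was not tested. The peaks of Gm16537 and Dmrt1i were annotated to the start of a protein-coding transcript, and whether their tags belong to these genes was not tested.

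Mup7, which encodes a major urinary protein, was the gene with the smallest ratio among those with at least 100 promoter tags. Its 2 peaks held 110 tags in WT and 24 in LKO, a ratio of 0.214 (0.131 to 0.335), and its 5 other Pol II peaks, from −18976 to 5097 bp from the start, held 249 and 35 tags together. RNA was 365, 397, 418 and 398 CPM in WT and 54.5, 47.8, 57.4 and 50.9 CPM in LKO (log2 fold change −2.91 ± 0.07, adjusted p = 1.97e-12). The Mup genes are near copies of each other, so tags and reads of Mup7 can come from its neighbours.

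Mt2, a metal-binding metallothionein, had 270 tags in WT and 81 in LKO, a ratio of 0.294 (0.226 to 0.378), at a peak in its 5′ UTR (chr8:96696597-96696809). Its RNA was 5.52, 5.35, 6.05 and 5.41 CPM in WT and 9.26, 5.49, 5.02 and 9.46 CPM in LKO, so the groups overlapped (log2 fold change 0.35 ± 0.19, adjusted p = 0.147). Without LKO replicate 2 or 3 the RNA difference passed the test with a higher level in LKO (adjusted p = 0.0316 and 0.0474). Elmo1, a regulator of cell migration, had 86 and 27 tags over 2 peaks, and its RNA did not pass the test (0.13 ± 0.24, adjusted p = 0.695). The order of Pol II and RNA therefore differed from gene to gene among the lowest ratios.

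Elovl3, a fatty acid elongase with higher levels in males, had 88 tags in WT and 40 in LKO, a ratio of 0.446 (0.299 to 0.654), and RNA of 56.7, 51.4, 51.6 and 52.6 CPM in WT and 8.51, 7.52, 6.93 and 10.6 CPM in LKO (−2.68 ± 0.11, adjusted p = 4.62e-10). The H3K4me3 peak over this promoter rose (0.49, adjusted p = 0.00462). Srd5a1, a steroid reductase, had 194 and 89 tags with a small fall of RNA (−0.26 ± 0.06, adjusted p = 0.00263), as did Cyp2d9 (192 and 95 tags, RNA −0.46 ± 0.06) and Bhmt, a methyltransferase of methionine metabolism (123 and 65 tags, RNA −0.37 ± 0.06). In Syne4 (83 and 38 tags) and Cyp2c50 (80 and 40 tags) the RNA rose instead, by 0.81 ± 0.23 (adjusted p = 0.0117) and 0.71 ± 0.07 (adjusted p = 4.19e-06). Skida1 had 76 and 37 tags and no RNA difference that passed the test (adjusted p = 0.876). Cyp2c and Cyp2d genes are multigene families whose members can share reads.

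**Figure D2:**
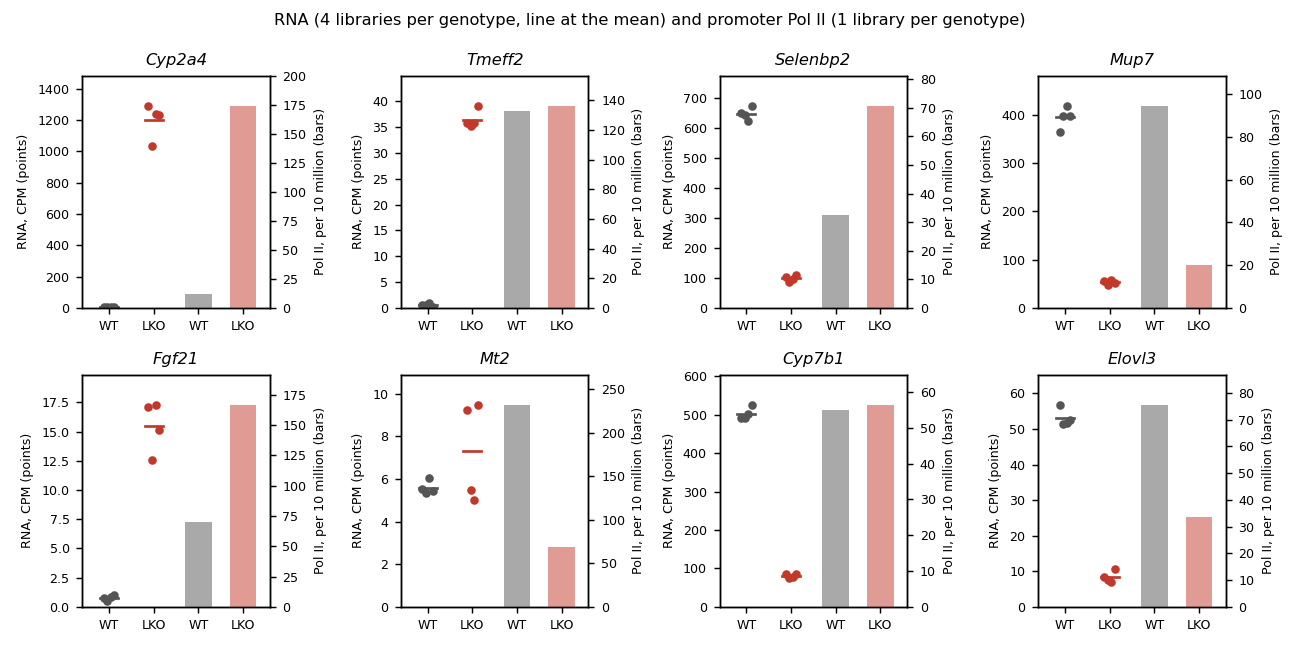
RNA and promoter Pol II of 8 genes. Points are RNA CPM in each of the 4 WT and 4 LKO libraries with a line at the mean, and bars are normalised Pol II tags in the 1 library of each group, so they carry no replicate error. Both readings were higher in LKO for Cyp2a4 and Fgf21 and lower for Mup7 and Elovl3, RNA alone differed at Tmeff2 and Cyp7b1, Pol II alone at Mt2, and they went opposite ways at Selenbp2.

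RNA was set against Pol II for genes with a promoter peak. Of the 12094 genes, 11576 were in the RNA table and 10668 were tested, of which 2502 rose and 2343 fell in LKO at an adjusted p below 0.05, beside 2856 (23.4%) and 2621 (21.4%) of all 12220 genes tested. When the absolute log2 fold change also had to reach 1, 295 rose and 93 fell, beside 397 (3.25%) and 169 (1.38%) of all genes tested. LKO replicate 2 stood apart in the RNA data. Its counts differed from the other LKO libraries by 19.8 to 29.1 times the counting variance per gene, beside 1.53 to 9.87 times among the others and 1.69 to 2.53 times among WT libraries, and without it 342 genes rose and 210 fell by both criteria. Scaling to total counts without TMM shifted the median of all genes from 0.03 to −0.15 and gave 1335 genes up and 4161 down by adjusted p alone.

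Genes whose RNA changed strongly had fewer measured promoter peaks than others. Of the 397 genes up and the 169 genes down by both criteria, 74.3% and 55.0% had a Pol II promoter peak, beside 88.2% of the remaining genes. The 216 genes up that reached 50 tags had a median Pol II log2 ratio of 0.11, with 30 higher and 10 lower in LKO. The 77 genes down had a median of −0.05, with 2 higher and 8 lower, and the 9675 genes that were neither had a median of 0.07, with 151 higher and 83 lower. The difference between the medians of genes up and genes down was 0.16 and fell to 0.03 without LKO replicate 2 (255 and 186 genes). With the classes set by adjusted p alone, the medians were 0.08 over 2245 genes up and 0.06 over 2286 genes down. Most genes whose RNA changed thus had a Pol II ratio within the same range as genes whose RNA did not.

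Read the other way, 183 of the 209 genes with higher Pol II were tested for RNA, and 62 rose (33.9%) and 34 fell (18.6%). Of the 112 genes with lower Pol II, 32 of those tested rose (31.7%) and 25 fell (24.8%). Over all 9968 genes compared in both assays 22.5% rose and 22.9% fell. Spearman's correlation between the Pol II ratio and the RNA fold change was 0.037 over these 9968 genes and 0.24 over the 293 genes with a changed RNA by both criteria. It was 0.034 over the 1817 genes with at least 400 promoter tags, and these are descriptions across genes, which are not independent. The levels themselves went together more closely, with a correlation of 0.44 between WT promoter tags and WT RNA per kilobase of exon.

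**Figure D3:**
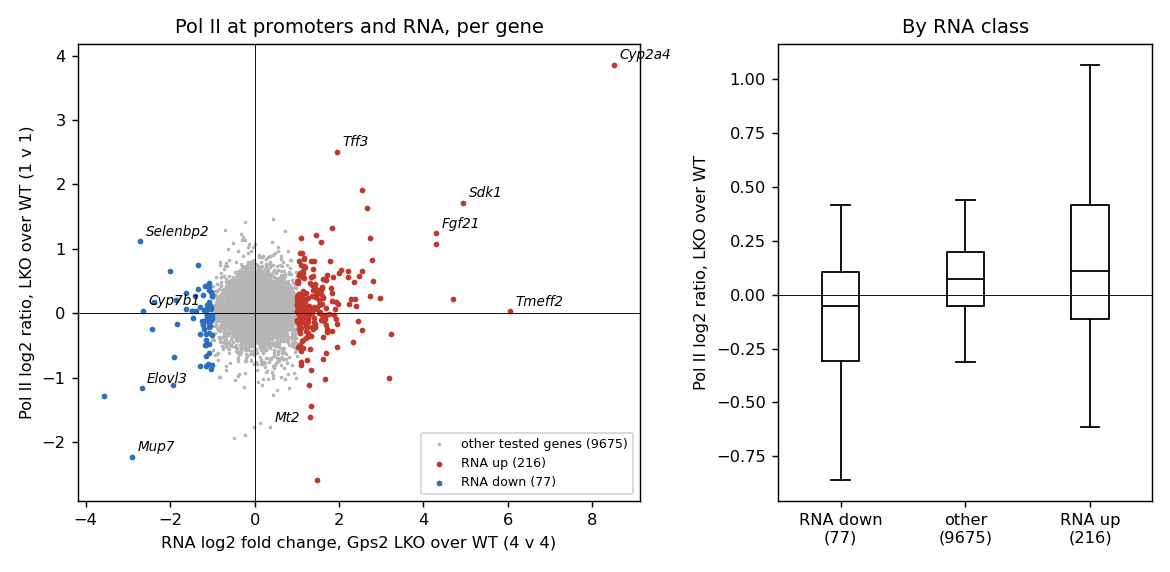
Left, log2 fold change of RNA (horizontal) against log2 ratio of promoter Pol II (vertical), LKO over WT, 1 point per gene. Right, the Pol II ratio by RNA class as box plots with the median, the quartiles as box and the 5th to 95th percentile as whiskers. The boxes overlap, with medians of 0.11 for genes up, −0.05 for genes down and 0.07 for genes not called.

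Several genes with some of the largest RNA changes had a promoter Pol II ratio whose interval included 1. Tmeff2, a transmembrane protein with follistatin domains, had 155 tags in WT and 162 in LKO, a ratio of 1.02 (0.817 to 1.29). Its RNA was 0.191 to 0.931 CPM in WT and 35.2 to 39.1 CPM in LKO (log2 fold change 6.04 ± 0.18, adjusted p = 1.35e-11). H3K4me3 at its promoter was 86.1 and 95.8 normalised tags in WT and 494 and 441 in LKO (2.36, adjusted p = 8.23e-07). Bmper, a BMP-binding protein, had 189 and 224 tags, a ratio of 1.16 (0.953 to 1.42), with RNA higher by 4.70 ± 0.32 on the log2 scale (adjusted p = 1.02e-07). Cyp7b1, an oxysterol hydroxylase of bile acid synthesis, had 64 and 67 tags, a ratio of 1.03 (0.717 to 1.47), while its RNA fell from 502 ± 16.1 to 80.6 ± 5.64 CPM (SD, n = 4; −2.64 ± 0.07, adjusted p = 1.64e-12).

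Opposite directions were seen in both combinations. Selenbp2, a selenium-binding protein, had 38 tags in WT and 84 in LKO, a ratio of 2.17 (1.46 to 3.27), with RNA of 646 ± 21.1 CPM in WT and 99.2 ± 9.23 CPM in LKO (SD, n = 4; −2.71 ± 0.07, adjusted p = 3.9e-12) and H3K4me3 of 537 and 410 normalised tags in WT and 189 and 105 in LKO (−1.69, adjusted p = 0.000974). A near-identical paralog can share its reads. The only other gene with lower RNA by both criteria and higher Pol II was 4933404O12Rik (28 and 48 tags), named here after its values were seen. The 10 genes with higher RNA and lower Pol II, likewise, included Cyp2c29 (182 and 112 tags, RNA 1.24 ± 0.06), Cyp2c54 (64 and 24 tags, RNA 1.33 ± 0.07) and Cxcl14, a chemokine (59 and 10 tags, RNA 1.48 ± 0.17). Both fell together at 8 genes, among them Nat8, an acetyltransferase (36 and 15 tags, RNA −3.57 ± 0.15).

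At the targeted gene and its partners Pol II did not differ beyond counting error. Gps2 had 70 promoter tags in WT and 84 in LKO, a ratio of 1.18 (0.846 to 1.64). Its RNA was 16.4, 15.8, 16.7 and 15.1 CPM in WT and 12.7, 9.86, 9.16 and 12.9 CPM in LKO (−0.53 ± 0.11, adjusted p = 0.0021), so Gps2 RNA was lower in every LKO library and not absent. The part in this of other liver cells, which keep the gene, and of exons outside the deletion was not tested. The intervals of the other 5 NCOR complex genes also included 1, from Tbl1x (54 and 50 tags) to Ncor1 (217 and 239 tags). The RNA of Ncor1 (−0.63 ± 0.13) and Tbl1x (−0.58 ± 0.17) fell, and that of Hdac3 (adjusted p = 0.198) and Tbl1xr1 (0.301) did not pass the test, although both fell when scaled to total counts. The Gps2 promoter thus did not check the labels of the 2 Pol II libraries. Pol II at Cyp2a4, Cyp4a14, Fgf21 and Mup7 differed in the direction of the labelled RNA libraries. These genes do not settle the labels either. Cyp2a4 and Mup7 were picked by their Pol II ratio, and Cyp4a14 was below the tag minimum. Fgf21 and Pdk4 were named by the design, passed the minimum and were higher in both assays. They were, however, chosen with earlier results of these data known. Other genes, such as Selenbp2 and Cyp2c29, went the opposite way.

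H3K4me3 lay over nearly all promoter peaks: 14574 (98.4%) overlapped a peak of the mark called in at least 2 of the 4 libraries, beside 59.2% of the other Pol II peaks. Histone peaks were taken whole, and many were far wider than the Pol II peaks they overlapped, as at Ass1 and Igfbp1. Values of both marks thus describe the whole histone peak and not the promoter alone. The promoter peaks shared 11477 distinct H3K4me3 peaks, of which 124 rose and 10 fell in LKO (edgeR, adjusted p below 0.05), with 1056 at an unadjusted p below 0.05. Of all 22814 H3K4me3 peaks tested, 182 rose (0.798%) and 27 fell (0.118%). The promoter calls were 72 without WT replicate 2, 176 without WT replicate 1, 19 when every peak of the table was tested and 400 with a replicate block. Among the 284 promoter peaks with higher Pol II, 14 had an H3K4me3 peak that rose and 1 that fell, and among the 167 with lower Pol II 9 rose and 0 fell. At the 12042 promoter peaks that were neither, 127 rose and 6 fell. Conversely, Pol II at the 150 compared promoter peaks under an H3K4me3 rise had a median log2 ratio of 0.05, with 14 higher and 9 lower. Spearman's correlation between both ratios was 0.029 over 12493 peaks, −0.045 without WT replicate 1 and 0.082 without WT replicate 2, a sign that turned with 1 library. In WT the levels of Pol II and H3K4me3 had a correlation of 0.48.

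Among promoter peaks with at least 50 Pol II tags, those with the smallest p for an H3K4me3 rise belonged to Tmeff2, Igfbp1, Cyp2c29, Acaa1b and Ass1. Igfbp1, a secreted binding protein of insulin-like growth factors, went from 435 and 464 to 1044 and 964 normalised tags (1.16, adjusted p = 3.77e-06), with 203 and 220 Pol II tags. Acaa1b, a peroxisomal thiolase, rose by 0.92 (adjusted p = 2.3e-05) with 274 and 250 Pol II tags, and Ass1, an enzyme of the urea cycle, by 0.81 (adjusted p = 3.32e-05) with 372 and 387. The RNA of Acaa1b (1.09 ± 0.08) and Ass1 (1.27 ± 0.10) rose, and that of Igfbp1 did not pass the test (adjusted p = 0.211). In these 3 genes the Pol II interval included 1. The smallest p for a fall, again among peaks with at least 50 Pol II tags, was at Selenbp2, followed by Gse1 (−0.52, adjusted p = 0.00707), Cyp2u1 (−0.47, adjusted p = 0.0114), Rassf3 (−0.36, adjusted p = 0.0186) and Nr6a1 (−0.65, adjusted p = 0.0301). Each of these 5 falls was above an adjusted p of 0.05 when every peak of the table was tested, from 0.055 for Selenbp2 to 0.199 for Cyp2u1. A Nat8 peak with 21 and 8 Pol II tags, under the minimum, also lay in an H3K4me3 fall (−1.17, adjusted p = 0.0257).

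H3K27ac, over 97.9% of promoter peaks, rose at 92 and fell at 13 of 11401 distinct peaks, beside 568 (1.21%) and 100 (0.212%) of all 47108 peaks tested. The number of calls changed with the library left out, and the reason was not tested. Without WT replicate 1 or 2 edgeR called 0 (644 and 677 at an unadjusted p below 0.05), and without LKO replicate 1 or 2 it called 458 and 206, whereas DESeq2 on all 4 libraries called 128. At promoter peaks with higher Pol II 10 of 283 rose and 0 fell, and at those with lower Pol II 4 of 167 rose and 0 fell. At the 12039 promoter peaks that were neither, 69 rose and 9 fell. Spearman's correlation with the Pol II ratio was −0.082 over 12489 peaks.

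GPS2 was bound at many of the promoters in WT liver. Of the 14810 promoter peaks, 8087 (54.6%, exact 95% interval 53.8 to 55.4) overlapped a WT GPS2 peak by at least 1 base, beside 48.2% of the other Pol II peaks. The share was larger at higher Pol II, from 40.1% in the lowest quartile of compared peaks by tags to 58.4%, 68.8% and 78.2% in the next. NCOR peaks, present in at least 2 of 3 WT libraries, overlapped 25.2% of promoter peaks and 40.7% of the others, and PPARα peaks 35.1% and 43.4%. Whether the 3 libraries of each factor came from separate livers was not tested here. At the 8087 promoter peaks GPS2 had a median of 16 tags in WT and 0 in LKO. All 8087 were lower in LKO, of which 4056 held no tag, and since these peaks were called in WT this is in part their definition.

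The median Pol II ratio was nearly the same at promoters with and without GPS2. The median log2 ratio was 0.08 over 7692 compared peaks with a GPS2 peak, of which 141 were higher (1.83%) and 84 lower (1.09%). It was 0.07 over 4829 peaks without one, of which 148 were higher (3.06%) and 84 lower (1.74%). In quartile 1 of Pol II tags, the lowest, 5.77% were higher and 4.57% lower with GPS2, and 5.32% and 3.65% without. In quartile 3 these shares were 0.746% and 0.14% with GPS2, and 1.23% and 0.411% without. Within each quartile of Pol II tags the 95% intervals of both medians overlapped. Among the peaks with GPS2 the median was 0.08 in the quartile with 5 to 11 GPS2 tags and 0.07 in the quartile with 24 to 119. Peaks with both GPS2 and PPARα (3945) had a median of 0.07, those with GPS2 alone (3747) 0.08, and those with NCOR (3435) 0.08 against 0.07 without. At Tbl1xr1, the peak with the third highest GPS2 count (112 tags in WT, 0 in LKO) held 48 and 54 Pol II tags, and its other promoter peak, without GPS2, held 95 and 82.

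**Figure D4:**
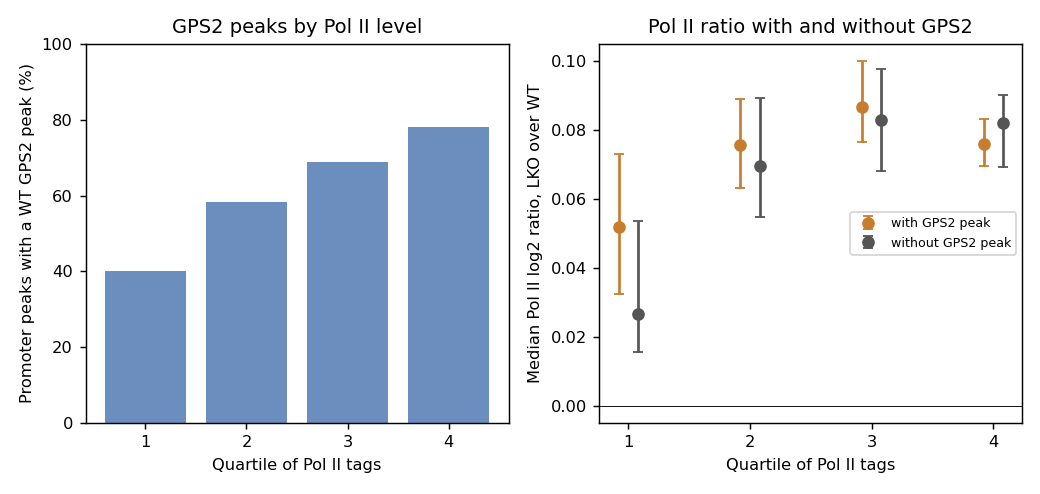
Left, percentage of compared Pol II promoter peaks with a WT GPS2 peak in each quartile of Pol II tags, rising from 40.1% to 78.2%. Right, median log2 ratio of Pol II (LKO over WT) at promoter peaks with and without a GPS2 peak in the same quartiles, with bars for the 95% interval of the median over peaks, which is not replicate error; the intervals overlap in every quartile.

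The sequence upstream of the start differed somewhat between called genes and others. A window was read for 186 of the 209 genes with higher and 103 of the 112 with lower Pol II, and for 9606 (89.8%) of the 10693 genes compared. The median observed over expected CpG was 0.691 for genes with higher Pol II, 0.611 for those with lower Pol II and 0.753 for all compared. TATAAA was present in 17 (9.14%), 10 (9.71%) and 591 (6.15%) of the windows, GGGCGG in 100 (53.8%), 42 (40.8%) and 6097 (63.5%), and the direct repeat in 3, 5 and 238. In the quartile of genes with the fewest CpG 2.998% were higher and 2.12% lower, and in the quartile with the most CpG 1.37% and 0.541%. Median promoter tags rose from 193 to 268 between these quartiles, and the part of the counts in these shares was not tested.

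Gene lists by function were described next (counts of members with at least 50 tags, beside 1.95% higher, 1.05% lower and a median log2 ratio of 0.07 over all genes). By RNA 23.4% of all genes tested rose and 21.4% fell, the shares to set beside the RNA counts of every list and marker set below. With total-count scaling far more genes fell than rose, as given above, so list counts under that scaling have a different background. The lists were written with earlier results of these data known, and called members that no rule named were picked after their values were seen. Scaling the libraries to the median lowers every Pol II log2 ratio by 0.08, so list medians between 0 and 0.08 turn negative with it. Of the genes known as PPARα targets, 30 of 42 were compared, 2 were higher (Pdk4 and Fgf21), none was lower and the median was 0.13. Acot1, an acyl-CoA thioesterase, had 71 and 105 tags and missed the fold limit, and Cyp4a10, a neighbour of Cyp4a14, had 2 and 27 tags, below the minimum. Cpt1a (271 and 300 tags) and Acaa1a (269 and 287), enzymes of fatty acid oxidation, and Angptl4 (296 and 306), a secreted inhibitor of lipoprotein lipase, had intervals that included 1. By RNA 21 of 41 rose and 8 fell (17 and 13 with total-count scaling), beside 23.4% and 21.4% of all genes tested. H3K4me3 rose at 9 of 30 promoters, beside 125 of the 10659 genes measured. The median RNA log2 change of this list, 0.18, turned to −0.01 when scaled to total counts.

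Genes that differ between the sexes in liver changed in RNA, with a few called in Pol II. Of 22 female-biased genes tested, 21 rose and none fell, and of 27 male-biased genes none rose and 25 fell, or 20 up and 25 down with total-count scaling. Only 8 of 32 female-biased genes had enough promoter tags, of which Cyp2a4 and Cyp17a1 (40 and 65 tags), the steroid hydroxylase of androgen synthesis, were higher and none was lower. Trim24 (201 and 200 tags), Cyp2a5 and Fmo1 (145 and 200), a flavin monooxygenase, were below the fold limit. Of 16 male-biased genes compared, none was higher and 4 were lower, namely Mup7, Elovl3, Cyp2d9 and Susd4 (49 and 13 tags). The other male-biased genes included Bcl6, a repressor, with 515 and 608 tags, a ratio of 1.16 (1.03 to 1.30) below the fold limit, and an RNA that fell (−1.85 ± 0.08, adjusted p = 1.14e-09). Nudt7 (325 and 308 tags), Gstp1 (279 and 269) and Mup3 (254 and 255) had intervals that included 1, and their RNA fell. Of the 3 Bcl6 peaks, the one in its 5′ UTR held 53 and 142 tags, and the others held 234 and 234 and 228 and 232.

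Among metabolic lists, the 21 cholesterol synthesis genes driven by SREBP2 had a median of −0.08, with none called and 1 of 21 above the median of all genes, while 14 of 25 rose and 4 fell in RNA. With total-count scaling 9 rose and 10 fell. Insig1 had 326 and 334 promoter tags and Sc5d had 260 and 269. For lipogenesis the median was 0.02, 0 were higher and 1 of 26 was lower, Scd1 (292 and 182 tags), whose RNA rose (0.73 ± 0.08, adjusted p = 5.55e-06), and 23 of 31 genes rose and 2 fell in RNA (17 and 3 with total-count scaling). Thrsp (377 and 367 tags), Dgat2 (344 and 360) and Fads2 (322 and 354) were within counting error. None of 23 glucose genes was called (median 0.09), with Slc37a4 at 414 and 519 tags, Tat at 429 and 447 and Pck1 at 385 and 426. By RNA 13 of 23 glucose genes rose and 4 fell, or 6 and 7 with total-count scaling.

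**Figure D5:**
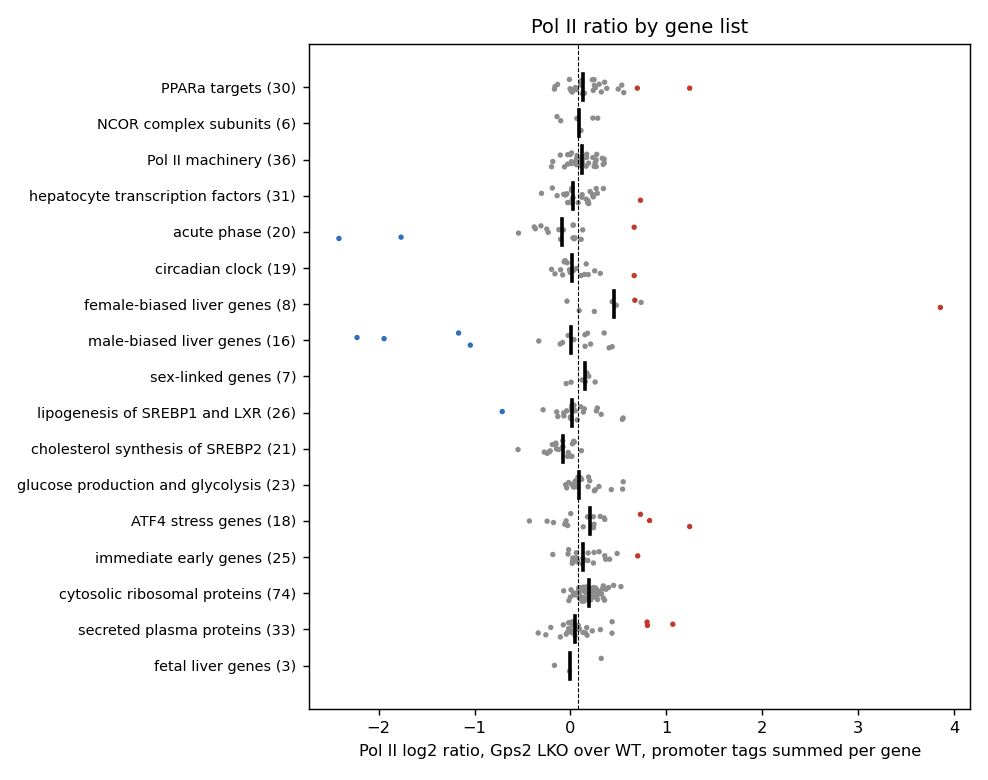
Log2 ratio of promoter Pol II (LKO over WT) for the members of each gene list with at least 50 tags. Dots are genes, red and blue where called higher or lower, thick bars mark the list median and the dashed line marks the median of all genes (0.07). Most dots lie close to the dashed line, with the ribosomal protein genes mostly above it and the cholesterol synthesis genes mostly below it.

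The cytosolic ribosomal protein genes had slightly higher Pol II ratios than most genes. None of the 74 compared was called, the median log2 ratio was 0.19, and 71 of 74 were above 0 (65.7% of all genes compared were) and 67 above the median of all genes. Rpl3 had 259 and 301 promoter tags, Rpl10 241 and 318 and Rps12 256 and 284. By RNA 54 of 66 rose and none fell, or 45 of 66 with total-count scaling and 33 with a trend on exon length removed. Without LKO replicate 2, 56 of 66 rose. The 36 genes for Pol II subunits and initiation, pausing and elongation factors had a median of 0.12 and none was called, with 7 of 39 rising and 10 falling in RNA (1 and 18 with total-count scaling). Among them Polr2a, the largest subunit, had 398 and 409 tags, Gtf2a1 394 and 420, Ell 291 and 349 and Gtf2b 273 and 313.

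Stress and early response genes showed a few called members. In the list of ATF4 stress genes, 18 were compared and 3 were higher, Fgf21, Atf5 (78 and 132 tags) and Nupr1 (26 and 47). The regulators Atf4 (395 and 456 tags), Cebpb (337 and 330), Ddit4 (311 and 318) and Ddit3 (229 and 298) were not called. By RNA 12 of 21 rose and 1 fell (12 and 4 with total-count scaling). Of 25 immediate early genes 1 was higher, Maff, and the median was 0.13, with Jun at 446 and 517 tags, Dusp1 at 336 and 389 and Zfp36 at 329 and 373, and 14 of 25 rose and 3 fell in RNA (12 and 6 with total-count scaling). Of 19 clock genes, with a median of 0.02, 1 was higher, Per1 (102 and 165 tags), while Tef (519 and 586), Ciart (458 and 464), Usp2 (413 and 427) and Nr1d2 (283 and 344) were not. By RNA 5 of 18 clock genes rose and 5 fell (2 and 9 with total-count scaling), beside 23.4% and 21.4% of all genes tested.

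Genes for secreted proteins were mostly level. Of 33 plasma protein genes 3 were higher (Apoa4, Serpina6 and F9) and none lower, with Alb at 405 and 419 tags, Apob at 404 and 407, Trf at 391 and 399 and Apoe at 389 and 377, while 25 of 35 rose and 5 fell in RNA (21 and 7 with total-count scaling). Apoa4, an apolipoprotein of fat transport, had 94 and 201 tags and RNA higher by 4.29 ± 0.09 (adjusted p = 3.55e-13). Of 20 acute phase genes 1 was higher (Serpina3k) and 2 were lower (Mt2 and Orm3), the median was −0.09, and Hpx (279 and 311), Hp (283 and 295), Hamp (273 and 301) and Fgb (253 and 267) were not called. By RNA 10 of 25 acute phase genes rose and 6 fell, or 7 and 11 with total-count scaling. Of 31 hepatocyte transcription factor genes 1 was higher (Atf5), with Ppara at 509 and 549 tags, Rxra at 380 and 395 and Foxa2 at 335 and 394, and 8 of 32 rose and 13 fell in RNA. None of the 3 fetal liver genes compared (Alcam, Scd2 and Cd24a) and none of the 7 sex-linked genes (Ddx3x, Kdm6a, Ddx3y and Kdm5c among them) was called, with 4 of 6 fetal genes rising and 4 of 8 sex-linked genes falling in RNA. With the trend on exon length removed, 1 sex-linked gene rose and 1 fell.

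Markers of the cell types of liver were checked beside these lists. Hepatocyte markers were abundant in both assays, with 9 of 10 compared at the promoter, none called and a median of 0.03, and summed RNA of 122208 to 125685 CPM in WT and 149524 to 166486 CPM in LKO. Markers of other cells had low promoter Pol II. Only 2 of 9 Kupffer cell and macrophage genes with a peak reached 50 tags (none called), 9 of 10 sinusoidal endothelial genes did (1 higher, Oit3), 8 of 12 stellate cell genes (none called), 1 cholangiocyte gene (Sox9, 170 and 179 tags) and 1 gene of lymphocytes and neutrophils (Ptprc, 31 and 20 tags). In RNA, 5 of 10 hepatocyte genes rose and 2 fell, with a median of 0.17 that turned to −0.01 with total-count scaling, and 11 of 12 Kupffer and macrophage genes and 12 of 12 stellate genes rose and none fell. Their summed levels went from 218 to 223 CPM in WT to 276 to 315 CPM in LKO for the former and from 252 to 264 to 414 to 446 CPM for the latter. With total-count scaling 8 Kupffer and macrophage genes and 11 stellate genes rose. Of endothelial genes 3 of 10 rose. This was 0 with total-count scaling, 8 with the trend on exon length removed and 5 without LKO replicate 2. Of cholangiocyte genes 3 of 6 rose, and of lymphocyte and neutrophil genes 1 of 4 with 1 falling. No listed gene in the RNA table was at 0 in every library. The part of other cell types in the Pol II and RNA differences was not tested, and in whole liver more cells of a type and more RNA per cell cannot be told apart.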

How the data were processed

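Per the labels all ChIP livers were crosslinked with DSG and formaldehyde, whereas the study's methods give formaldehyde alone for histone marks, and 2 to 4 immunoprecipitations were pooled per sample. The authors aligned ChIP reads to mm9 with Bowtie2 and called peaks with HOMER. The deposited Pol II, GPS2 and histone tables hold tag counts per peak, not normalised. Deposited peak files carry a score column that the authors left at 1 for every peak, so only peak positions were used. The deposited RNA table holds raw counts per gene beside the authors' fold changes and p-values, which were not used. Its build and counting program could not be settled from the sources used here, so RNA and ChIP were joined by gene identifier only.

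With 1 Pol II library per group no test was possible. Ratios of tags per total tags were given with exact 95% intervals (scipy 1.17.1), for peaks or genes with at least 50 tags, and intervals cover counting error only. They were not adjusted for the number of peaks or genes, nor for picking the largest and smallest ratios. RNA and histone counts were tested with edgeR 4.0.16 (quasi-likelihood, Benjamini-Hochberg adjusted p; TMM for RNA, total tags for histone peaks called in at least 2 of 4 libraries). Every adjusted p is two-sided and from edgeR. Totals were 13194385 to 20086127 counts for RNA, 15346011 to 19011288 tags for H3K4me3, 25018399 to 29443500 for H3K27ac and 15497240 and 14791062 for GPS2. The paper describes its replicates as biological, while the labels do not say that each came from a separate animal. The p-values thus measure the spread between these samples. Scripts were tested on simulated data.

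Named genes were Pdk4, Cyp4a14, Fgf21 and the NCOR subunits, the 10 genes with the largest and the 10 with the smallest Pol II ratio among those called with at least 100 tags, the 5 with most WT tags, the 4 members of each list with most tags, the 5 genes up and the 5 down in RNA with the largest change and at least 50 tags, the 5 promoter peaks with the smallest H3K4me3 p in each direction (here among peaks with at least 50 tags, a limit the rule as first written lacked), and the peaks nearest the distance limit. A few called genes outside this rule were named after their values were seen, and a few genes that the rule covers are not reported here. The members and lists were chosen with earlier results of these data known. Sequences and motifs were read from the NCBIM37 (mm9) genome. Alternatives changed the scaling, tag minimum, fold, tool (DESeq2 1.42.0), filters, overlap rule, replicate block and each library in turn.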

Additional observations from a re-analysis of the deposited data

Results flagged for a closer look

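RNA values of the named genes were screened for 1 library far from the other 3 of its group, which chance gives in about 1 in 20 groups, and 6 of 62 groups met this. LKO replicate 2 was the outlying library in 3 of them, with Tff3 at 64.81 CPM (others 93.65 to 99.25), 1810053B23Rik at 3.101 CPM (others 2.477 to 2.551) and Aldh1b1 at 62.52 CPM (others 72.25 to 74.24). In LKO replicate 4 Tmeff2 was at 39.09 CPM (others 35.18 to 35.83). In WT replicate 1 Aldh1b1 was at 35.09 CPM (others 31.96 to 32.47) and Sdk1 at 0.186 CPM, with the others at 0. In none of these genes did the WT and LKO libraries overlap.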

How the results depend on the processing

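Of 112 alternative values for the main results, 90 stayed within their limits and 22 moved, and none of the named results reversed (485 the same, 16 weaker and 6 stronger). Scaling to the median ratio set the median Pol II log2 ratio at −0.00549. A minimum of 200 tags left 42 called peaks, a median of 0.0812 and a difference of −0.00328 between peaks with and without GPS2, and a fold of 2 left 93 called peaks. The difference in Pol II between RNA classes was 0.0216 with classes by adjusted p alone, and 0.0318 to 0.174 with 1 library left out, lowest without LKO replicate 2. H3K4me3 calls were 19 with every peak of the table tested and 72 to 176 with 1 library left out (lowest without WT replicate 2). The correlation of Pol II with H3K4me3 ran from −0.0446 to 0.0819. H3K27ac calls were 159 with peaks of at least 1 library, an alternative chosen after seeing the data, and 0 to 458 with 1 library left out. Requiring the GPS2 peak centre within 500 bp gave 69.8% with GPS2 and a difference of 0.026, and the upper 50% of GPS2 peaks by tags gave 26.4% and −0.0065. The cause of these shifts was not tested. RNA calls ran from 3833 to 6192 with 1 library left out.

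Samples of the groups share only replicate numbers. With the replicate block edgeR called 5081 RNA, 400 H3K4me3 and 365 H3K27ac differences at promoters, and the difference between RNA classes was 0.16. Same-number correlations of deviations were 0.084, 0.145, 0.036 and 0.163 for RNA, 0.239 for H3K4me3 and 0.179 for H3K27ac, and not every RNA sample correlated best with its own number. Depth limits Pol II most at peaks with under 126 tags, where most calls lay.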
